A study of Oryza sativa with 30 samples.

Results

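The step from 4 to 8 short days was examined in shoot apices of the rice (Oryza sativa) cultivar Nipponbare (NB), as 3 RNA-seq count libraries of NB day 8 against 3 of NB day 4. These 6 libraries are all those labelled with that cultivar and those days, out of 23 libraries in the series, and they stand for 10 of its 30 labelled samples, since sequencing runs had been merged. NB and a second cultivar, Taichung 65 (T65), grew in chambers at 28 °C in the light and 24 °C in the dark, and 6-week-old plants were moved from 16 h light and 8 h dark to 10 h light and 14 h dark. Day 0 plants had not been moved, and days 4, 8 and 12 count the short days after the move. Apices were cut out under a microscope, so a library holds the meristem together with the young leaves and vascular strands around it. The labels number the replicates without saying whether they are separate plants or pools, so some of the variation between replicates may be technical. Unless other libraries are named, the p-values below reflect only how far replicates varied within the 8 groups of cultivar and day. That spread is shared by all 23 libraries and is not that of the 6 libraries alone.

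Rice flowers in response to short days. Florigen proteins, made in leaves, travel to the shoot apex and bind 14-3-3 proteins and the bZIP factor OsFD1, and the resulting complex switches on MADS-box genes of the FRUITFULL group, which turn the leaf-making meristem into an inflorescence meristem. The stem also begins to elongate at this time, which gibberellin promotes and which PINE1, a zinc-finger factor of the vegetative apex, restrains by lowering the response to gibberellin.

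The 6 libraries held 11.9 to 24.95 M counts in genes, where M is 1e+06. Before any scaling, 3 counts thus corresponded to 0.12 to 0.252 CPM (counts per M). The CPM values of genes given below are TMM-scaled. Reads aligned to several places came to 6.71% of assigned reads in NB day 8 replicate 3 and to 9.73 to 10.9% in the other 5 libraries. The NB day 4 libraries were the most unlike each other of all 8 groups. The median SD of log2(CPM + 0.5) over 13709 genes of at least 10 CPM was 0.18 at NB day 4, 0.121 at NB day 8 and 0.085 to 0.118 in the other 6 groups. On the first principal component of the 6 libraries, which carried 39.0% of the variance, the days stood apart and NB day 4 replicate 1 lay farthest out. Meristem markers were present on both days. The KNOX gene OSH1 was at 140.4, 128 and 140.4 CPM on day 4 and 167, 121 and 123 CPM on day 8, and OSH15 at 108, 105 and 119 and then 112, 84.4 and 93.8 CPM, with overlapping ranges for both genes. Of the other meristem markers chosen, OSH71 did not pass over the step. FON1 fell without overlap, from 5.54, 4.75 and 5.56 to 3.40, 3.75 and 3.33 CPM, and is treated below.

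Over the step 1544 genes rose (6.76% of the 22839 tested) and 1198 fell (5.25%), 2742 or 12.0% in all, at an adjusted p under 0.05 (edgeR quasi-likelihood test, Benjamini-Hochberg adjustment). Which direction was more frequent depended on the processing. Falls outnumbered rises with upper-quartile scaling (1391 and 1270), with no filter on low counts (1792 and 1557) and with only the 6 libraries in the model (62 and 56), but not in the other settings run. Most changes were small: the median was 1.37-fold among the genes that rose and 1.52-fold among those that fell, and a log2 fold change beyond 1 was reached by 95 genes upwards and 295 downwards. The 3 day 8 libraries lay wholly above the 3 of day 4 for 1460 of the 1544 genes, against 12.7% of all genes tested. They lay wholly below for 1061 of the 1198, against 11.1%. The calls were made on the same libraries, so this separation is not separate support for them. The count of 2742 genes rests on a spread shared by all 8 groups. With only the 6 libraries in the model 118 genes passed (0.556% of 21238 tested), and without the library that stood apart and the one of low multi-mapped share, NB day 4 replicate 1 and NB day 8 replicate 3, 872 passed. The 16 libraries in which over 8% of reads aligned to several places gave 692 (2.93% of 23646, 1.54% higher and 1.38% lower). Leaving out single libraries gave counts of 1672 without NB day 4 replicate 1 and 1582 without NB day 8 replicate 3.

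Genes were read in 21 lists of known function with 195 members, of which 167 passed the filter on low counts and 48 passed the test, 27 upwards and 21 downwards. Of all genes tested 12.0% passed, 6.76% upwards and 5.25% downwards. The lists were chosen with earlier results of these data known, and 13 of the 27 rises were cell division genes, so the 2 shares are not a fair comparison. The model of the 6 libraries alone kept 12 of the 48: PINE1, OsMADS14, OsMADS15, OsMADS20, FTL1, PCNA, CYCB2-2, MCM4, MCM5, MCM6, MCM7 and CAB1R. The 16 libraries with over 8% of such reads kept 20 of them. Of the 48 genes, 27 kept their call whichever of the 6 libraries was left out. The median log2 fold change over all tested genes was -0.01, beside which the medians of the lists are given. In lists other than the inflorescence MADS-box, florigen and cell division lists at most 3 members passed in either direction, and their calls are given as single genes. Symbols and roles rest on recalled pairs of symbol and MSU locus, since the count files hold loci only. A RefSeq gene table (assembly ASM3414082v1), which has no MSU loci, held 144 of the recalled symbols on the same chromosome as the paired locus, a check of the chromosome alone. It held no such symbol for PINE1, FTL1, RCN2, OsFD1, FKF1, GA2ox1, RI, CLF, VIL2, VIL3, PSAD and LHCB-c, so the names of these loci were not checked.

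**Figure D1:**
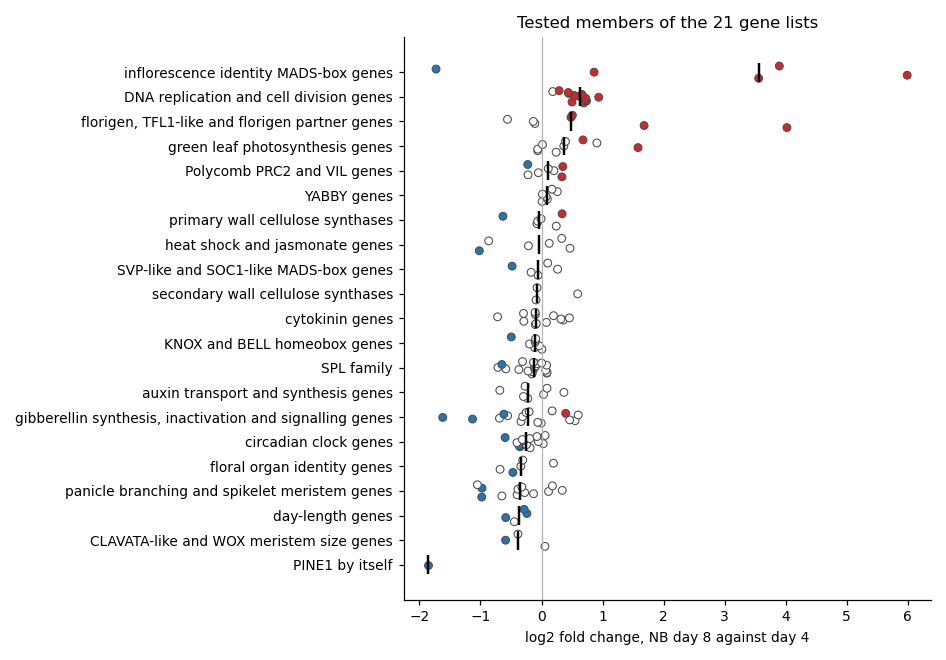
Log2 fold change at NB day 8 against NB day 4 (horizontal axis) of each tested member of the 21 gene lists (rows, ordered by their median, a black bar). Filled points passed the test upwards (red) or downwards (blue) and open points did not; the inflorescence MADS-box list, with a median of 3.56, and the cell division list, with a median of 0.64, lie highest.

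PINE1 (LOC_Os12g42250), the gene that restrains internode elongation, was at 83.8, 128 and 87.2 CPM in the NB day 4 libraries and 31.0, 15.3 and 36.8 CPM on day 8. All 3 day 8 libraries lay below all 3 of day 4, which in turn overlapped day 0 (163, 111 and 138 CPM). PINE1 fell 3.65-fold over the step (log2 fold change -1.87 ± 0.25 SE, edgeR adjusted p = 0.000152) and stood lower still on day 12, at 3.72, 8.37 and 5.34 CPM. Published work on this transition may rest on the same libraries, so the directions of PINE1 and of the MADS-box genes below are not independent evidence.

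The inflorescence identity MADS-box genes moved the farthest as a list: of 5 members, all tested, 4 rose and 1 fell, with a median log2 fold change of 3.56. OsMADS14 (LOC_Os03g54160), a FRUITFULL-like gene that specifies the inflorescence meristem, stood at 2.48, 1.87 and 1.67 CPM on day 4 and 18.3, 30.8 and 19.5 CPM on day 8. It rose 11.8-fold (3.56 ± 0.29, edgeR adjusted p = 8.47e-07), from a day 4 level that already lay above every day 0 library (0.420, 0.485 and 0.546 CPM). Its relative OsMADS15 (LOC_Os07g01820) started lower, at 0.248, 0.1497 and 0.190 CPM, and reached 4.75, 19.2 and 11.5 CPM (5.99 ± 0.57, edgeR adjusted p = 9e-06). The day 4 values of OsMADS15 were close to the level of 3 counts, and its day 8 libraries spread widely, with replicate 1 the lowest. On day 12 both genes stood far above day 8, OsMADS15 at 249.8, 144 and 175 CPM and OsMADS14 at 135, 72.8 and 83.3 CPM.

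OsMADS18 (LOC_Os07g41370), the third FRUITFULL-like gene, was expressed from the start and rose 1.82-fold, from 108, 58.8 and 86.7 CPM to 133, 164 and 161 CPM (0.86 ± 0.17, edgeR adjusted p = 0.00244). The fourth, OsMADS20 (LOC_Os12g31748), went the other way: it fell 3.31-fold, from 8.03, 8.08 and 6.13 to 2.12, 1.51 and 3.13 CPM (-1.73 ± 0.25, edgeR adjusted p = 0.000285), and day 12 was lower again at 0.332, 0.667 and 0.825 CPM. OsMADS34 (LOC_Os03g54170), a SEPALLATA-like gene of early panicle development, was at the edge of detection, with 0, 0 and 1 counts on day 4 and 5, 9 and 2 counts on day 8. Its summed level was 20.8 times higher on day 8 (95% counting interval 3.23 to 873), and its call (edgeR adjusted p = 0.036) was lost without day 4 replicate 1, day 4 replicate 2, day 8 replicate 1 or day 8 replicate 2 (edgeR adjusted p up to 0.132). It reached 48.5, 16.2 and 23.8 CPM on day 12.

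**Figure D2:**
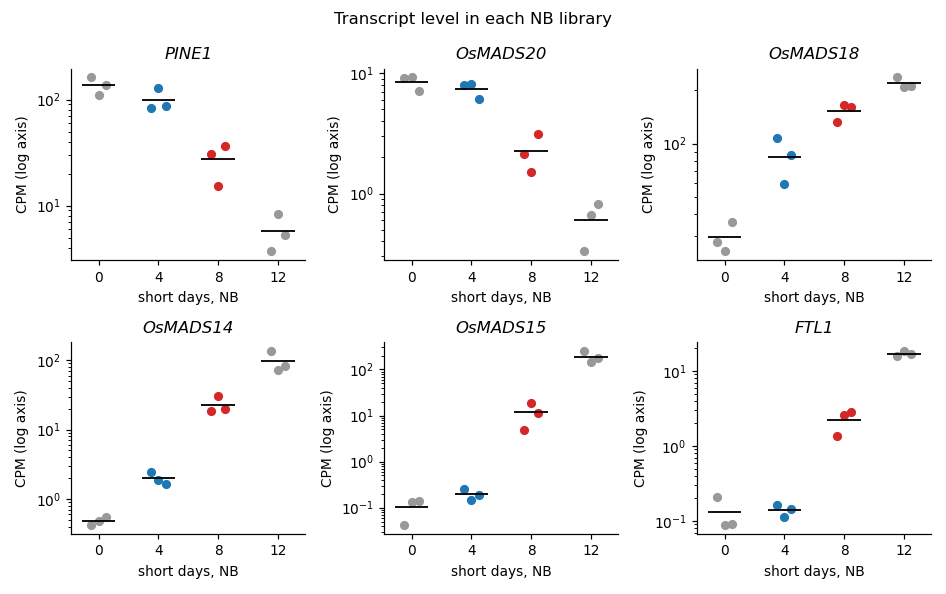
CPM on a log axis in each NB library (points) against the number of short days, with the group mean as a bar; day 4 is blue, day 8 red, and days 0 and 12 grey. PINE1 and OsMADS20 are lower in all day 8 libraries than in all day 4 libraries, and OsMADS14, OsMADS15, OsMADS18 and FTL1 are higher.

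Among the florigen family, its antagonists and its partners, 4 of 7 tested members rose and none fell (median 0.48), against 6.76% and 5.25% of all genes tested. The 16 libraries called 2 of them, FTL1 and GF14b, and the model of the 6 libraries called 1, FTL1. Hd3a, a florigen gene expressed in leaves, had 0 counts over the 6 libraries and did not enter the test. FTL1 (LOC_Os01g11940), itself related to florigen, was at 0.166, 0.112 and 0.143 CPM on day 4, within the day 0 range (0.210, 0.0881 and 0.0911 CPM). It was at 1.36, 2.61 and 2.79 CPM on day 8 (4.02 ± 0.41, edgeR adjusted p = 1.18e-05). The day 4 libraries held only 2, 3 and 3 counts of FTL1, so the size of this rise and the likeness to day 0 rest on few reads. The day 8 libraries lay far above the day 4 libraries, and day 12 stood at 15.9, 18.4 and 16.7 CPM. The 14-3-3 protein genes GF14c (LOC_Os08g33370), whose product binds florigen, and GF14b (LOC_Os04g38870) rose 1.42-fold and 1.40-fold. GF14c went from 524, 519 and 635 to 765, 790.1 and 827 CPM (0.51 ± 0.09, edgeR adjusted p = 0.00108), near its day 0 level, whereas GF14b went from 177, 139 and 151 to 214, 209 and 228 CPM (0.48 ± 0.08, edgeR adjusted p = 0.00079), above it. RCN2 (LOC_Os02g32950), a TERMINAL FLOWER 1-like gene that opposes florigen, rose at a low level, from 0.414, 0.187 and 0.190 to 0.764, 0.990 and 0.599 CPM (1.68 ± 0.50). The call on RCN2 was lost without day 4 replicate 2, day 4 replicate 3, day 8 replicate 1 or day 8 replicate 2 (edgeR adjusted p up to 0.119). OsFD1, the bZIP partner, was at 393, 178 and 316 CPM and then 198, 226 and 178 CPM and did not pass (edgeR adjusted p = 0.0573).

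DNA replication and cell division genes rose together: 13 of 14 members passed upwards and none downwards, against 6.76% of all genes tested, with a median log2 fold change of 0.64 and a range of 0.18 to 0.94. The summed level of the 14 genes was 1273 to 1483 CPM in the day 4 libraries and 2010 to 2205 CPM in the day 8 libraries. The 3 day 8 libraries lay above the 3 of day 4 for 13 genes, against 12.7% of all genes tested. The calls rest on the same libraries, so this separation is not separate support for them. PCNA (LOC_Os02g56130), the clamp that holds DNA polymerase on its template, went from 154, 135 and 186 to 328, 289 and 289.8 CPM, a 1.92-fold rise (0.94 ± 0.15, edgeR adjusted p = 0.000518). The 6 genes of the MCM helicase, which opens replication origins, rose by 0.50 to 0.74 on the log2 scale. All 3 B-type cyclin genes, which act at mitosis, passed as well. CYCB1-1 (LOC_Os01g59120) went from 135, 120.1 and 134 to 199.8, 192 and 203 CPM (0.61 ± 0.08, edgeR adjusted p = 0.000152). CYCB2-2 (LOC_Os06g51110) went from 71.2, 81.9 and 82.2 to 129, 130.4 and 114 CPM (0.66 ± 0.09, edgeR adjusted p = 0.000164). CYCB2-1 (LOC_Os04g47580) went from 86.9, 93.0 and 88.2 to 123, 142 and 124 CPM (0.53 ± 0.08, edgeR adjusted p = 0.000495). The one member that did not pass was CDKA1, the kinase gene used throughout the cell cycle, at 69.4, 70.3 and 71.8 and then 72.3, 69.5 and 98.7 CPM.

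The day 8 level of these genes overlapped that of long days. The sum was 1855 to 2204 CPM in the day 0 libraries, above the whole day 4 range and overlapping day 8, and 2115 to 2412 CPM on day 12. At NB day 8 against NB day 0 none of the 14 passed (edgeR; median 0.05, range -0.11 to 0.25), in a comparison that called 2.21% of all genes, 1.27% upwards and 0.946% downwards. The number of division genes that passed over the step was 10 in the 16 libraries named above, 6 with only the 6 libraries in the model, 10 without NB day 4 replicate 1 and NB day 8 replicate 3 together, and 11 to 12 with 1 library left out. In bulk tissue fewer cells of a type and less RNA per cell cannot be told apart, here and for every gene below.

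**Figure D3:**
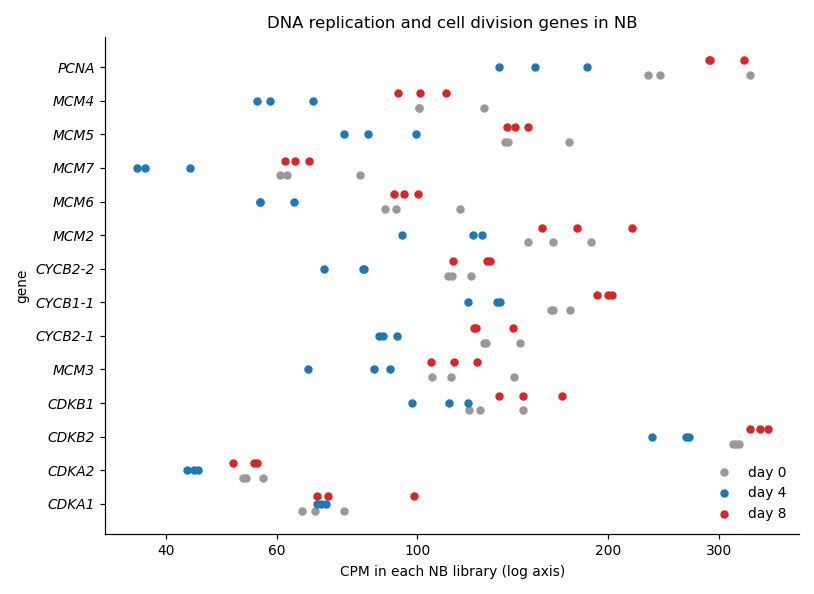
CPM on a log axis of the 14 DNA replication and cell division genes (rows, ordered by their change over the step) in each NB library of day 0 (grey), day 4 (blue) and day 8 (red). For every gene except CDKA1 the 3 red points lie to the right of the 3 blue points, and they overlap or neighbour the grey ones.

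All 3 phytochrome genes, which encode the red and far-red light receptors, fell, as 3 of 4 tested day-length genes (median -0.36), and Hd1, the fourth, did not pass. Of all genes tested 5.25% fell, and of the 4 day-length genes 1 was called in the 16 libraries and 0 with only the 6 libraries in the model. PHYA (LOC_Os03g51030) went from 197, 179 and 168 to 129.6, 105 and 128 CPM, a 1.502-fold fall with no overlap between days (-0.59 ± 0.10, edgeR adjusted p = 0.000776). PHYB (-0.24 ± 0.08) and PHYC (-0.28 ± 0.09) fell less, and their calls were lost when any of 4 of the 6 libraries was left out: day 4 replicates 1 and 3 and day 8 replicates 2 and 3 (edgeR adjusted p up to 0.218 and 0.159). From day 0 to day 4 PHYA, PHYB and PHYC had risen by 0.33, 0.25 and 0.36 on the log2 scale. At NB day 8 against day 0 they stood at -0.26, 0.01 and 0.08, and none passed.

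Of 13 clock genes 3 passed downwards and 0 upwards (median -0.25), against 5.25% and 6.76% of all genes tested. None of the clock genes was called in the 16 libraries or with only the 6 libraries in the model. PRR1 (LOC_Os02g40510), an evening component of the clock, stood within a narrow range on each day, 41.5, 42.5 and 43.5 and then 34.3, 34.4 and 31.3 CPM (-0.35 ± 0.08, edgeR adjusted p = 0.00464). FKF1 (LOC_Os11g34460), a blue-light receptor of the photoperiod pathway, went from 14.2, 15.8 and 16.0 to 12.31, 8.81 and 9.58 CPM (-0.60 ± 0.16, edgeR adjusted p = 0.017) and stayed above day 0 (2.98, 4.58 and 4.83 CPM; NB day 8 against day 0 1.30 ± 0.17, edgeR adjusted p = 0.000128). FKF1 lost its call without day 8 replicate 2 or day 8 replicate 3 (edgeR adjusted p up to 0.0828). PRR37 (LOC_Os07g49460), a heading date gene, fell from 308, 203 and 259 to 216, 179 and 200.2 CPM (-0.37 ± 0.12, edgeR adjusted p = 0.0492), with day 4 replicate 2 inside the day 8 range. PRR37 lost its call without day 4 replicate 1, day 4 replicate 3, day 8 replicate 2 or day 8 replicate 3 (edgeR adjusted p up to 0.267). No source used here gives the hour at which apices were collected, so a change over days and a change in sampling time relative to the light period cannot be told apart for these genes.

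Of 12 tested panicle branching genes 2 passed downwards and 0 upwards (median -0.35), against 5.25% and 6.76% of all genes tested, so that counts this small say little about the list. No member was called in the 16 libraries or with only the 6 libraries in the model. RFL (LOC_Os04g51000), the rice relative of LEAFY, stood at 145, 52.0 and 81.7 CPM on day 4 and 54.9, 47.5 and 37.9 CPM on day 8 (-0.98 ± 0.26, edgeR adjusted p = 0.0187). PLA1 (LOC_Os10g26340), a cytochrome P450 that slows leaf initiation, went from 172, 104 and 106 to 69.5, 70.2 and 54.0 CPM (-0.98 ± 0.24, edgeR adjusted p = 0.0119). For both genes day 4 replicate 1 was the highest of the 6 libraries, for RFL replicate 2 of day 4 fell inside the day 8 range, and both calls were lost without day 4 replicate 1 or day 8 replicate 3 (edgeR adjusted p up to 0.168 for RFL and 0.0799 for PLA1). Without both libraries together the log2 fold change of RFL was -0.40 and that of PLA1 -0.61. Day 0 levels were 42.05, 47.9 and 41.5 CPM for RFL and 61.6, 61.4 and 64.5 CPM for PLA1, below every day 4 library. Neither gene passed at NB day 8 against day 0 (edgeR adjusted p = 0.89 for RFL and 0.941 for PLA1), so each fall was a return from a higher day 4 level. Day 12 values were again higher, 149, 83.5 and 87.4 CPM for RFL and 171, 101 and 85.7 CPM for PLA1. FZP, which ends branching by fixing spikelet identity, had 1 count over the 6 libraries and was not tested.

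OsSPL14 (LOC_Os08g39890), an SBP-box factor that shapes tillering and panicle branching, was the 1 gene of 18 in the SPL list that passed (median -0.12), a share near the 5.25% of all genes that fell. It went from 738, 437 and 548 to 303, 469 and 325 CPM (-0.65 ± 0.18, edgeR adjusted p = 0.0245), after 285, 269 and 353 CPM on day 0. Days 4 and 8 overlapped, and the call was lost without day 4 replicate 1, day 8 replicate 1 or day 8 replicate 3 (edgeR adjusted p up to 0.151). Floral organ identity genes were mostly silent: 9 of 14 were too low to test. OsMADS2 (LOC_Os01g66030), a PISTILLATA-like gene, fell as 1 of the 5 tested (median -0.34), from 38.4, 28.3 and 36.4 to 26.5, 20.6 and 27.3 CPM (-0.47 ± 0.12), and lost its call without day 4 replicate 1, day 4 replicate 3 or day 8 replicate 2 (edgeR adjusted p up to 0.094). Its day 0 level was 23.5, 24.1 and 22.5 CPM. OsMADS50 (LOC_Os03g03070), a SOC1-like promoter of flowering, fell as 1 of 5 SVP-like and SOC1-like genes (median -0.06). It went from 97.5, 67.6 and 97.8 to 68.1, 55.2 and 64.7 CPM (-0.48 ± 0.10, edgeR adjusted p = 0.00461), with day 4 replicate 2 inside the day 8 range, and stood at 33.9, 33.4 and 35.1 CPM on day 12. OsSPL14, OsMADS2 and OsMADS50 were not called in the 16 libraries or with only the 6 libraries in the model.

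Of 16 tested gibberellin genes 3 passed downwards and 1 upwards (median -0.23), against 5.25% and 6.76% of all genes tested. The 16 libraries called 1 of them lower and 0 higher, and the model of the 6 libraries called none. Of the synthesis genes, GA20ox2 (LOC_Os01g66100), the semidwarf gene SD1, fell 2.19-fold, from 22.8, 16.6 and 14.6 to 7.05, 11.3 and 5.79 CPM (-1.13 ± 0.25, edgeR adjusted p = 0.006), with no overlap between days. GA2ox1 (LOC_Os05g06670), whose enzyme inactivates gibberellin, fell at a low level from 2.73, 1.98 and 2.14 to 1.19, 0.730 and 0.333 CPM (-1.62 ± 0.42, edgeR adjusted p = 0.0159). In the signalling branch, the receptor gene GID1 (LOC_Os05g33730) fell from 329, 167 and 252 to 188, 146 and 154 CPM (-0.62 ± 0.17, edgeR adjusted p = 0.0221). GID2 (LOC_Os02g36974), the F-box gene that removes the DELLA repressor, rose from 193, 206 and 238 to 267, 274 and 298 CPM (0.40 ± 0.08, edgeR adjusted p = 0.00315). From day 0 to day 4 GID1 had risen (0.66) and GID2 had fallen (-0.55). Neither passed at NB day 8 against day 0 (0.04 for GID1 and -0.15 for GID2). GA2ox1 lost its call without day 8 replicate 2 or day 8 replicate 3 (edgeR adjusted p up to 0.091), and GID1 without day 4 replicate 1, day 8 replicate 2 or day 8 replicate 3 (edgeR adjusted p up to 0.162). The DELLA gene SLR1 did not pass, at 168, 176 and 159 and then 125, 166 and 131 CPM; it was named after its values were seen.

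Of 8 tested KNOX and BELL homeobox genes, which maintain the meristem, 1 fell (median -0.10): RI (LOC_Os12g43950), a BELL gene, from 34.8, 33.0 and 36.5 to 28.3, 23.5 and 22.4 CPM (-0.50 ± 0.13, edgeR adjusted p = 0.0154). FON1 (LOC_Os06g50340), a CLAVATA1-like receptor that limits meristem size, went from 5.54, 4.75 and 5.56 to 3.40, 3.75 and 3.33 CPM (-0.59 ± 0.19, edgeR adjusted p = 0.0439), as 1 of 3 tested genes of its list (median -0.39). RI lost its call without day 8 replicate 2 or day 8 replicate 3 (edgeR adjusted p up to 0.0809), and FON1 when any library other than day 4 replicate 2 was left out (edgeR adjusted p up to 0.132). Neither was called in the 16 libraries or with only the 6 libraries in the model. Of all genes tested 5.25% fell.

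No gene passed among 6 tested YABBY genes of lateral organs (median 0.09), 12 cytokinin genes (-0.09), 7 auxin genes (-0.22) or 3 secondary wall cellulose synthases of vascular strands (-0.07). Their lowest p-values belonged to OsYAB5 (0.26 ± 0.14, edgeR adjusted p = 0.23), CKX9 (-0.29 ± 0.14, edgeR adjusted p = 0.192), FIB (-0.27 ± 0.12, edgeR adjusted p = 0.151) and CESA7 (0.59 ± 0.39, edgeR adjusted p = 0.354).

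Chromatin and wall genes showed single changes. Of 7 tested genes of the Polycomb repressive complex and its VIN3-like partners 2 rose and 1 fell (median 0.11), against 6.76% and 5.25% of all genes tested. None was called in the 16 libraries or with only the 6 libraries in the model. The VIN3-like locus recalled as VIL2 (LOC_Os02g05840) rose from 70.7, 73.3 and 79.5 to 104, 92.6 and 88.3 CPM (0.35 ± 0.08, edgeR adjusted p = 0.00585). CLF (LOC_Os06g16390), a histone methyltransferase gene, rose as well (0.33 ± 0.10, edgeR adjusted p = 0.0273). The locus recalled as VIL3 (LOC_Os12g34850) fell (-0.23 ± 0.07, edgeR adjusted p = 0.0417). Which of the VIL2 and VIL3 names belongs to which locus was not checked, so neither direction is tied to a role in flowering. VIL2 and CLF had been higher on day 0 than on day 4. At NB day 8 against day 0 no gene of this list passed (VIL2 0.08, CLF -0.15 and VIL3 -0.14). The call on CLF was lost without day 4 replicate 1, day 4 replicate 3 or day 8 replicate 2 (edgeR adjusted p up to 0.158), and that on VIL3 when any library other than day 4 replicate 1 was left out (edgeR adjusted p up to 0.105). Of 6 primary wall cellulose synthases CESA8 (LOC_Os07g10770) rose, from 53.6, 55.9 and 60.8 to 75.9, 65.6 and 74.3 CPM (0.34 ± 0.08, edgeR adjusted p = 0.00809). Its day 0 level was 84.9, 71.95 and 70.9 CPM. CESA6 (LOC_Os07g14850) fell, from 185, 364 and 192 to 156, 174 and 149 CPM (-0.63 ± 0.17, edgeR adjusted p = 0.0186), with day 4 replicate 2 far above the rest, and lost its call without day 4 replicate 2, day 8 replicate 1 or day 8 replicate 3 (edgeR adjusted p up to 0.122). Neither CESA gene was called in the 16 libraries or with only the 6 libraries in the model.

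Genes of green leaves and of sample handling were read as checks on the tissue. Of 9 tested photosynthesis genes 2 rose (median 0.37), against 6.76% of all genes tested. CAB1R (LOC_Os09g17740), a chlorophyll-binding protein gene, went from 17.5, 12.4 and 19.6 to 46.5, 44.9 and 55.6 CPM (1.58 ± 0.28, edgeR adjusted p = 0.00108), and the photosystem I gene PSAD (LOC_Os08g44680) from 24.91, 25.4 and 27.9 to 35.3, 40.1 and 49.97 CPM (0.68 ± 0.17). PSAD lost its call without day 4 replicate 1 or day 8 replicate 3 (edgeR adjusted p up to 0.0929). The 10 leaf genes summed to 80.1 to 160.1 CPM on day 4 and 153.9 to 217 CPM on day 8, with LHCB-c at 0 on both days, beside 75.7 to 78.7 CPM on day 0. Near-identical CAB and RBCS genes share reads, so single values of these families are uncertain. The share of leaf tissue in each apex was not measured, and the part of it in the other changes was not tested.

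Of 6 tested heat shock and jasmonate genes 1 fell (median -0.04): the heat shock chaperone gene HSP101 (LOC_Os05g44340), from 67.9, 28.3 and 32.4 to 26.1, 13.6 and 23.6 CPM (-1.02 ± 0.28, edgeR adjusted p = 0.0228), with a call that was lost without day 4 replicate 1 or day 8 replicate 2 (edgeR adjusted p up to 0.19). It was not called in the 16 libraries or with only the 6 libraries in the model, and 5.25% of all genes tested fell. The 9 genes of this list summed to 120.4, 55.7 and 74.9 CPM in the day 4 libraries and 64.0, 46.1 and 50.4 CPM on day 8, with AOS2 at 0 on day 8. NB day 4 replicate 1 was thus the highest here as well as for RFL and PLA1, and the part of handling in those changes was not tested.

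The genes with the largest changes of all were read by a rule on size. Of the 10 largest rises among called genes with separate libraries and at least 1 CPM on the higher day, 3 were the list genes OsMADS15, FTL1 and OsMADS14. The next were 2 loci with no name in the tables used here. LOC_Os02g03710 rose from 0.248, 0.449 and 0.428 to 3.48, 4.53 and 4.79 CPM (3.42 ± 0.62, edgeR adjusted p = 0.00129), back to its day 0 range of 4.16, 5.90 and 3.37 CPM. LOC_Os02g20360 rose from 0.0828, 0.299 and 0.0951 to 0.679, 2.50 and 1.86 CPM (3.23 ± 0.60, edgeR adjusted p = 0.00161), and it too had been higher on day 0 (1.72, 0.881 and 2.60 CPM). None of the 10 largest falls was in a list. LOC_Os10g37760 was at 47.8, 58.6 and 3.85 CPM on day 4 and 1.02, 1.72 and 1.597 CPM on day 8 (-4.63 ± 0.66, edgeR adjusted p = 0.000228). Its high level was that of day 4 replicates 1 and 2, and replicate 3 lay within the day 0 range (2.02, 2.16 and 4.96 CPM). LOC_Os09g24580 had 61 counts over the day 4 libraries against 2 on day 8, 23.4 times as many per read sequenced (95% counting interval 6.22 to 198). Its call was lost without day 8 replicate 2 or day 8 replicate 3 (edgeR adjusted p up to 0.0675).

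The same step in T65, the other cultivar, was used to ask what differed in NB. No gene passed at T65 day 8 against T65 day 4 (0.0% of genes tested by edgeR, 1544 at an unadjusted p under 0.05 and 71 adjusted by DESeq2). The difference of the 2 steps itself was called for 471 genes (2.06%), of which 287 (1.26%) had the higher value in the NB step and 184 (0.806%) the lower; with upper-quartile scaling the split was 215 and 211. This count depended on the libraries used: it was 31 with only the 4 groups in the model, 72 without T65 day 4 replicate 3 and 140 without T65 day 8 replicate 2. In the 16 libraries it was 1, but there T65 day 8 was replicate 3 alone, taken to vary like the other groups.

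Among the named genes PINE1 was at 80.7, 97.1 and 82.6 CPM on T65 day 4 and 58.9, 77.05 and 64.6 CPM on T65 day 8, and the T65 step did not pass (T65 -0.38 ± 0.24, edgeR adjusted p = 0.809; difference of the steps -1.49 ± 0.34, edgeR adjusted p = 0.0292). OsMADS14 stood at 0.473, 0.286 and 0.638 CPM and then 0.655, 0.971 and 0.803 CPM in T65 (difference 2.73 ± 0.69, edgeR adjusted p = 0.0433). OsMADS15 had 10 counts on T65 day 4 and 1 on T65 day 8, so the size of its difference (8.99 ± 2.15, edgeR adjusted p = 0.0326) rests on few reads. Of the 14 cell division genes 6 had a larger step in NB, PCNA, CYCB1-1, CYCB2-1, CYCB2-2, MCM5 and CDKB2, and the T65 step of the list ran from -0.13 to 0.17. PCNA was at 248, 239.7 and 295 CPM on T65 day 4 and 273, 256 and 285 CPM on T65 day 8 (difference 0.88 ± 0.21, edgeR adjusted p = 0.0313). The T65 day 4 libraries thus lay above all NB day 4 libraries for PCNA. GF14b, GF14c and CESA8 also had a larger step in NB, and PRR1 and FKF1 a lower one. For FTL1 (edgeR adjusted p = 0.178), OsMADS18 (edgeR adjusted p = 0.833) and OsMADS20 (edgeR adjusted p = 0.129) a difference between the cultivars did not pass.

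**Figure D4:**
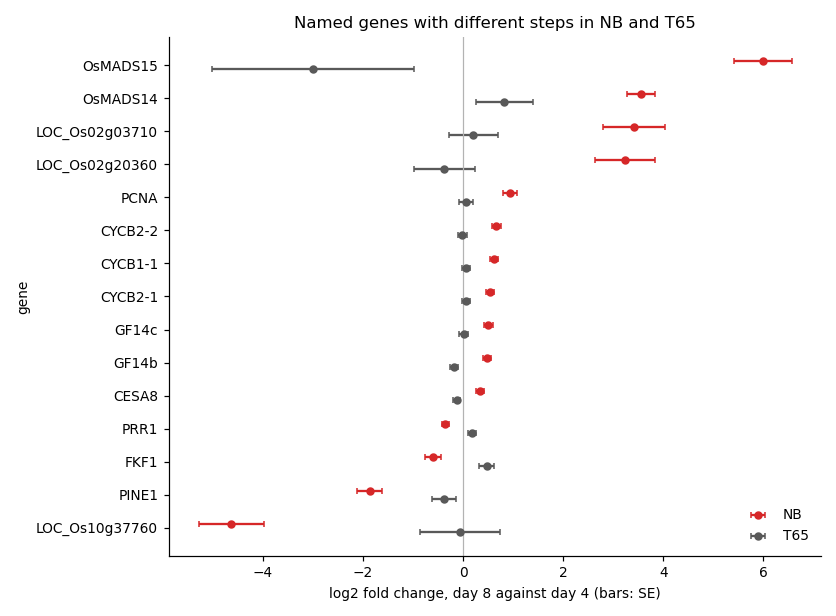
Log2 fold change at day 8 against day 4 (points, with bars of 1 SE) in NB (red) and T65 (grey) for the named genes whose steps differed between the cultivars. The NB points of OsMADS15, OsMADS14, LOC_Os02g03710 and LOC_Os02g20360 lie above 3, and that of LOC_Os10g37760 lies lowest, at -4.63. The T65 points of most genes lie near 0, apart from OsMADS15, which had 1 count on T65 day 8.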

How the data were processed

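The authors deposited raw read counts per gene, with no normalization, for 23 libraries. Per the submitters' processing notes the tools named are HTSeq, TopHat2, Bowtie2, edgeR 3.6.4 and R 3.1.0. No source used here names the genome build, the annotation release or the strand setting, so reads of overlapping or antisense genes cannot be told apart. Multi-mapped reads stand on a summary line of their own, not in the gene counts. The files name 55986 MSU loci without symbols or coordinates, and 19084 had no count. The 5 HTSeq summary lines at each file's end did not enter: in the 6 libraries of the step, 4.83 to 5.39% of assigned reads lay outside genes and 2.01 to 2.31% were ambiguous.

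Counts of the 8 groups of cultivar and day entered 1 model in edgeR 4.0.16 (glmQLFit and glmQLFTest, R 4.3.3) with TMM scaling and filterByExpr, which left 22839 genes and 15 residual degrees of freedom, at a common biological coefficient of variation of 12.7%. P-values were adjusted by Benjamini-Hochberg over all genes at a threshold of 0.05. SEs were taken as the absolute log2 fold change over the root of F. Counting intervals are exact, at 95%, and like the level of 3 counts cover counting error only. Libraries of a day were not duplicates (chi-square per gene 6.51 to 51.5). The fit was tested on simulated data in which each gene varied equally in all groups. That test therefore cannot show how the greater spread of NB day 4 affects the calls. DESeq2 1.42.0, other scalings, filters and library sets were alternatives.

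The lists and members were chosen with earlier results of these data known. Symbols were paired with loci from memory of the nomenclature: of 199, a RefSeq gene table (assembly ASM3414082v1) held 144 on the same chromosome and lacked 51, and 4 on another chromosome were dropped, which left 195. Named were PINE1, 4 inflorescence MADS-box genes and FTL1, up to 4 called members per list by adjusted p (where none passed, the member of lowest p), and the list genes, with at most 2 other loci in each direction, among the 10 largest changes and the 3 largest differences from T65. CDKA1, MCM5, CDKB2, OsFD1, SLR1 and other members outside this rule were named after their values were seen.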

Additional observations from a re-analysis of the deposited data

Results flagged for a closer look

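The NB step from day 4 to day 8 differed from the T65 step for 471 genes by a test of the difference itself (edgeR quasi-likelihood, Benjamini-Hochberg adjusted p under 0.05), and 15 of the named genes were among them. The differences below are NB step minus T65 step on the log2 scale, each over 3 libraries per group. OsMADS15 (8.99) and OsMADS14 (2.73) were higher in the NB step, as were the loci LOC_Os02g20360 (3.6) and LOC_Os02g03710 (3.21). The locus LOC_Os10g37760 (-4.56), PINE1 (-1.49), FKF1 (-1.07) and PRR1 (-0.53) were lower. Smaller positive differences were found for PCNA (0.88), CYCB2-2 (0.68), GF14b (0.66), CYCB1-1 (0.55), GF14c (0.49), CYCB2-1 (0.47) and CESA8 (0.47). The time of collection and the part of differing replicate spread in these differences were not tested.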

How the results depend on the processing

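Across all settings run, none of the 47 genes named by rule changed direction over the NB step. CDKA1 and OSH1, which did not pass, did: CDKA1 (0.18 on the log2 scale) was at -0.01 in the 16 libraries and -0.02 without NB day 4 replicate 1 and NB day 8 replicate 3, and OSH1 (0.01) turned negative under several settings, such as upper-quartile scaling (-0.02). The number of genes called at NB day 8 against NB day 4, 2742, was 118 with only the groups compared, 692 in the 16 libraries with over 8% multi-mapped reads, 872 without NB day 4 replicate 1 and NB day 8 replicate 3 together, and 1582 to 3767 with 1 library left out. At T65 day 8 against day 4 the count of 0 became 71 by DESeq2, 420 with no filter on low counts, 11 with a replicate block, and 0 to 23 with 1 library left out. The 471 differences between the steps became 1004 by DESeq2, 1218 with no filter, 31 with only the groups compared, 1 in the 16 libraries, where T65 day 8 was 1 library, and 72 to 628 with 1 library left out. The 505 genes at NB day 8 against day 0 became 920, 1703 and 97 by DESeq2, with no filter and in the 16 libraries, and 167 to 545 with 1 library left out. The causes were not tested, beyond the fewer libraries that some settings hold by construction. With a replicate block the step gave 3062 calls, and of the 47 named genes only PRR37 lost its call. The replicate numbers were not taken to pair the libraries: the correlations of same-numbered libraries were 0.157, 0.261 and 0.061, although every library correlated best with its own number. Calls at low counts, such as OsMADS34, are limited by depth.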
